A study of Homo sapiens with 12 samples.

Results

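The genes described here encode the replication-dependent core histones and the linker histones of human D283 medulloblastoma cells. They were chosen by symbol: H1 followed by a number, and the H2AC, H2BC, H3C and H4C series. The rule found 70 of the 49677 genes in the deposited table, comprising 10 linker histone H1 genes, 16 H2A genes, 17 H2B genes, 13 H3 genes and 14 H4 genes. A total of 55 members lay in the cluster on chromosome 6, within 2.17 Mb. Another 11 lay in 1 cluster on chromosome 1, within 105.3 kb, and the remaining 4 were linker histone genes outside both clusters. RNA came from 3 libraries of D283 cells with genetic inactivation of both ABL1 and ABL2, called inactivated cells below, and from 3 libraries of D283 cells given a scrambled control, called control cells. Both groups are of a single established cell line, and the labels do not say how the kinase genes were inactivated. Each library was run on 2 lanes, so the 12 samples of the series are 6 libraries.

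Histones package DNA into nucleosomes, with pairs of H2A, H2B, H3 and H4 forming the core and H1 binding the linker DNA between cores. The replication-dependent genes are transcribed in S phase by a locus factor, NPAT, which answers to cyclin E and its kinase. Their transcripts typically have no intron and no poly(A) tail, and end just after a conserved stem-loop that SLBP, the stem-loop binding protein, recognizes. Some of the clustered genes can also give polyadenylated transcripts, and H1-10 is made independently of replication. The labels state that mRNA was enriched before library construction, and how well tailless histone transcripts were kept was not tested.

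The stem-loop letters below are shown because they mark the usual end of these transcripts. The conserved 16-base histone stem-loop was found in an annotated GENCODE transcript (GRCh38) of 26 of the 66 members that could be matched, in 6 forms, the most frequent being shared by 13 members. The capitals mark the stem-loop and the lower-case letters are the neighbouring bases. The sites lie on chr6:26123472-26123487 (minus strand) for H2BC4, chr6:26124669-26124684 (plus strand) for H2AC6, chr6:27133515-27133530 (plus strand) for H2AC11 and chr1:149860769-149860784 (minus strand) for H4C15.
H2BC4: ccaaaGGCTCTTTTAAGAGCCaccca
H2AC6: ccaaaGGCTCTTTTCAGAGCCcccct
H2AC11: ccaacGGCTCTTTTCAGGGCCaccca
H4C15: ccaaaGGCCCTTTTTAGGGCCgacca
In the deposited annotation the exon holding the stem-loop ended 5 bases after it for H2BC4 and H2AC11 and 6 bases after it for H2AC6, but 817 bases after it for H4C15.

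Many H2A and H2B genes stand head to head and share a promoter interval. The next sequences are the intervals of 3 such pairs in which both genes were higher in inactivated cells (H2BC12 with H2AC12, H2BC11 with H2AC11, H2BC4 with H2AC6), and the upstream region of H1-2, the H1 gene with the clearest difference. Each is the 250 bases before the RefSeq start site (GRCh38.p14, minus strand, read toward the named gene), at chr6:27146859-27147108, chr6:27132796-27133045, chr6:26123927-26124176 and chr6:26056471-26056720. Capitals mark the octamer ATTTGCAT, which the factor OCT1 binds, the CCAAT box, the TATAAA form of the TATA box, and the element AAACACA known from H1 promoters. Reverse complements are capitalized as well, and overlap forward TATAAA letters at the far end of the H2BC12 and H2BC11 intervals. The reverse TATAAA begins at -223, -222 and -220 from the starts of H2BC12, H2BC11 and H2BC4. It is read toward their H2A partners, which start 248, 248 and 246 bases away. In the H2BC4 interval it is the only TATAAA marked, so none there is read toward H2BC4.
H2BC12: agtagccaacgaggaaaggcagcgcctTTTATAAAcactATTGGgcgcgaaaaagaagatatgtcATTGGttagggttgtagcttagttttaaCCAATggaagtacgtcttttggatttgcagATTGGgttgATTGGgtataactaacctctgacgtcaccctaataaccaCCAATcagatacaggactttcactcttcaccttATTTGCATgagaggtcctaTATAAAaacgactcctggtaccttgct
H2BC11: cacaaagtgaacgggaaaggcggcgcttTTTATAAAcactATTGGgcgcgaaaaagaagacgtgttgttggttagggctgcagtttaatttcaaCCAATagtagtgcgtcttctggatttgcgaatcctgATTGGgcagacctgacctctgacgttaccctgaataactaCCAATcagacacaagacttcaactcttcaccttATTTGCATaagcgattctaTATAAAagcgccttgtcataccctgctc
H2BC4: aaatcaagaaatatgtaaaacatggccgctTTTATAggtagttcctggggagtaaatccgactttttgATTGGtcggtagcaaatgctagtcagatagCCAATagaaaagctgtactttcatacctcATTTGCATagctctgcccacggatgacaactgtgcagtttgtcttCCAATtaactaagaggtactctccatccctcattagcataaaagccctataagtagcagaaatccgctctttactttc
H1-2: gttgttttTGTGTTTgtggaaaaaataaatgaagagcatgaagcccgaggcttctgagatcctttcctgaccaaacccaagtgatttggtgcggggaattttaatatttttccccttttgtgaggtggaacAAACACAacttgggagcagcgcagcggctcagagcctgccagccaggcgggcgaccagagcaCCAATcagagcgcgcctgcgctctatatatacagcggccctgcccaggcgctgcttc
The octamer starts 46 bases before the start site of H2BC12, 47 before that of H2BC11 and 123 before that of H2BC4. Promoters, searched on both strands over 250 bases before and 50 bases after the start, were matched for 64 members. ATTTGCAT stood in 14 of 17 H2B promoters (82.4%) and 11 of 15 H2A promoters (73.3%), against 1.80% of all 27305 promoters. CCAAT stood in all 17 H2B, 15 H2A and 11 H3 promoters matched, against 35.7% of all promoters. AAACACA stood in 7 of 9 H1 promoters (77.8%), against 5.76% of all promoters. Among the tested H2A and H2B genes with a matched promoter, 6 of the 15 with ATTTGCAT were higher in inactivated cells, as were 3 of the 4 without it. Of the other tested chromosome 6 genes 69.2% were higher, as were 29.6% of all genes tested. For H2AC11, H2AC13 and H2AC14, counted here as higher, only the inactivated libraries were all above the cut of the count filter given below. A link between motif and call was not tested.

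The libraries held 34292341 to 49034159 counts in inactivated cells and 33505903 to 35893081 in control cells, of which the 66 clustered members took 3135 to 4467 and 1585 to 1934 counts. Expression is given as CPM, counts scaled to the library's size after TMM adjustment. Scaled to library totals alone, 3 counts, the limit that a count of 0 allows, correspond to 0.0612 to 0.0895 CPM. ABL1 measured 62.1, 62.3 and 61.1 CPM in inactivated cells, against 157, 148 and 154 CPM in control cells. ABL2 measured 97.6, 112 and 102 CPM in inactivated cells, against 144, 136 and 134 CPM in control cells, so both were lower in every library labelled as inactivated. The line's markers OTX2, MYC, NEUROD1, SOX4 and NES were all detected. Markers of other cell types summed to 15.1 to 17.3 CPM in inactivated and 11.4 to 11.98 CPM in control cells for fibroblasts (5 genes, COL3A1 at 0). Of these, COL1A1 was called higher, at a mean of 15.1 CPM in inactivated and 8.11 CPM in control cells. DCN was called lower, at 0.979 and 3.27 CPM, and LUM did not pass. Endothelial markers (4 genes, none at 0) summed to 9.66 to 11.02 and 4.12 to 4.46 CPM, with KDR, a growth factor receptor, at 8.41 ± 0.690 and 2.22 ± 0.342 CPM (SD, n = 3 each). VWF, at a mean of 1.86 CPM in inactivated and 2.01 CPM in control cells, did not pass. PECAM1 and CDH5 were too scarce to be tested, so the endothelial sums follow KDR. Immune markers (5 genes, CD3E at 0) summed to 0.547 to 1.109 and 0.732 to 1.26 CPM, and astrocyte markers (3 genes, S100B at 0) to 0.0273 to 0.222 and 0 to 0.0301 CPM. The part of these markers in the histone results was not tested.

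Summed over the clustered members, histone mRNA was higher in each inactivated library than in each control library, at 95.5 ± 8.16 CPM in inactivated and 52.6 ± 6.19 CPM in control cells (SD, n = 3 each). The chromosome 6 cluster had a larger ratio than the chromosome 1 cluster, a difference that was not tested. Summed over the cluster, histone mRNA reached 83.1, 67.2 and 69.4 CPM in inactivated cells, against 36.5, 29.7 and 39.0 CPM in control cells, a ratio of means of 2.09. Every inactivated library stood above every control library, and inactivated replicate 1 stood highest. The chromosome 1 cluster summed to 22.3 ± 0.481 CPM in inactivated and 17.5 ± 1.40 CPM in control cells (SD, n = 3 each), a ratio of 1.27. These sums carry no test. In bulk RNA, a different share of cells making a histone mRNA and a different amount of it per cell cannot be told apart.

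**Figure D1:**
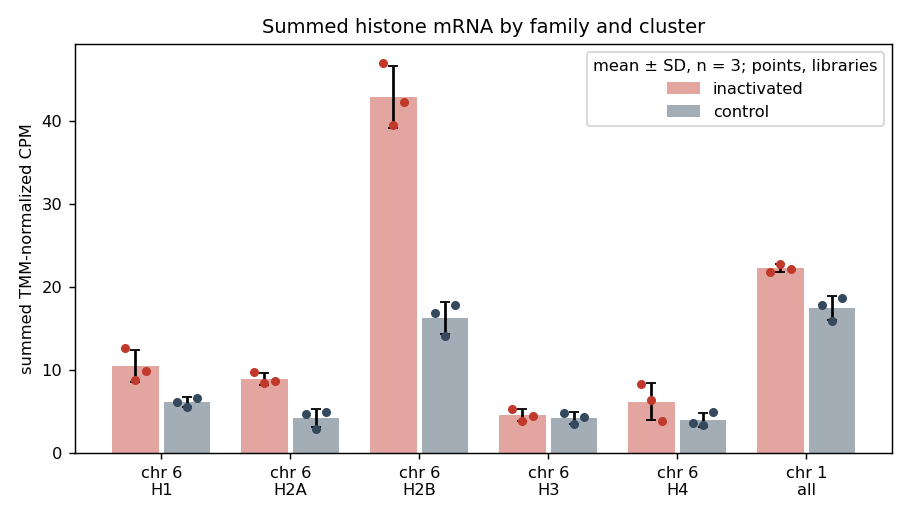
Summed TMM-normalized CPM (y axis) of the chromosome 6 H1, H2A, H2B, H3 and H4 genes and of the whole chromosome 1 cluster in inactivated and control cells. Bars are means ± SD of 3 libraries and points are libraries; the chromosome 6 H2B genes averaged 42.9 CPM in inactivated and 16.3 CPM in control cells, whereas the H3 bars (4.61 and 4.29 CPM) lie within each other's SD.

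A count filter left 32 clustered members for testing with edgeR's quasi-likelihood test, adjusted over all 14704 genes tested (Benjamini-Hochberg, threshold 0.05). Of these, 15 were higher and 2 lower in inactivated cells, where 29.6% of all genes tested were higher and 29.7% lower, 59.3% in all. For the chromosome 6 cluster 14 of 27 tested members were higher and 1 was lower. However, 69.2% of the other 662 tested genes of chromosome 6 were higher and 9.97% lower, so the share of cluster members called higher did not exceed that of the chromosome. The median log2 fold change was 0.70 over the tested cluster members, 0.50 over the other chromosome 6 genes and 0.0031 over all genes tested. Without inactivated replicate 1 the cluster median was 0.42, and without control replicate 1 it was 1.08. Set against the chromosome 6 median instead of 0, a comparison chosen after seeing the data, 10 cluster members lay above, 2 below and 15 passed in neither direction; of the other chromosome 6 genes 29.6% lay above and 32.2% below. In 8 of the tested members, H3C2, H3C4, H2AC11, H2AC12, H2AC13, H3C10, H2AC14 and H3C11, only the inactivated libraries were all above the filter's cut of 0.282 CPM. All 8 enter the cluster median of 0.70, with log2 fold changes of 0.53 to 2.02. How far the filter raised that median above the 0.50 of the other chromosome 6 genes was not tested. The 10 above the chromosome 6 median include H2AC11, H2AC12, H2AC13 and H3C10 of these. Of the 18 chromosome 6 members that all libraries of both groups carried past the cut, 8 were higher and 1 was lower. All 3 inactivated libraries lay above all 3 control libraries for 14 tested clustered members and below them for 1, against 31.4% and 31.9% of all genes tested. On chromosome 6 they lay above for 13 of 27 cluster members, and above for 459 of the 662 other genes. Those 13 include H2AC11, H2AC12, H2AC13, H3C10, H2AC14 and H3C11, which only the inactivated libraries carried past the cut.

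**Figure D2:**
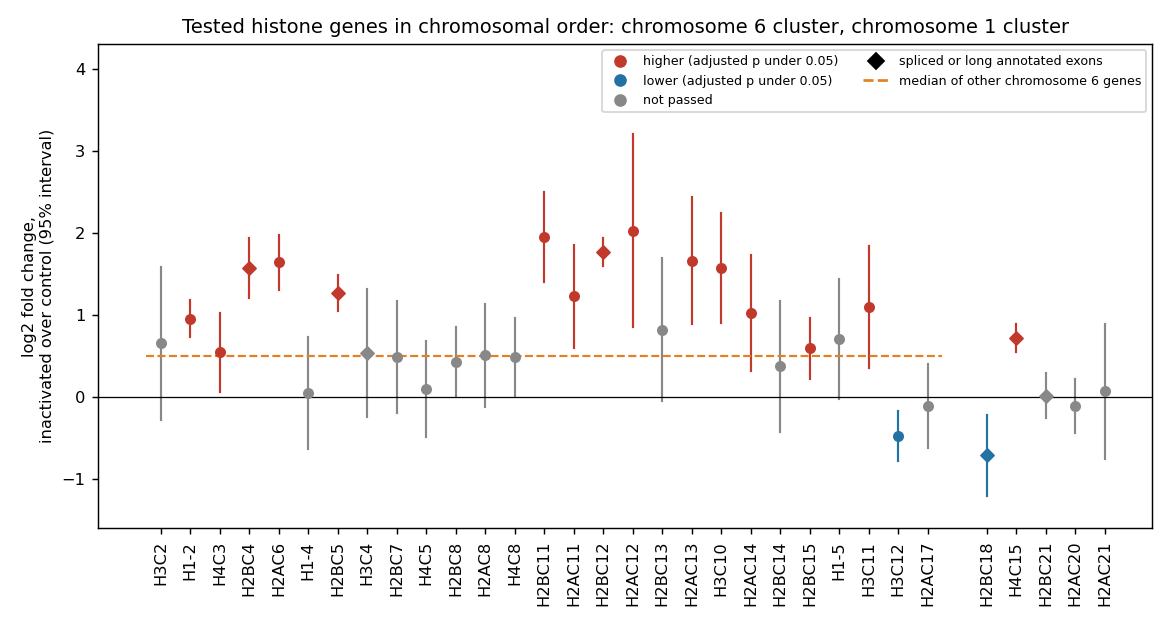
Log2 fold change, inactivated over control, with its 95% interval (y axis) for the 32 tested clustered histone genes in chromosomal order (x axis), the chromosome 6 cluster before the chromosome 1 cluster. Red marks genes higher and blue genes lower at an adjusted p under 0.05, diamonds mark genes with spliced or long annotated exons, and the dashed line is the median of the other chromosome 6 genes, 0.50; the H2A and H2B genes from H2BC11 to H2AC12 lie well above it and H3C12 below 0.

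H2B genes had the largest sum of the histone families of the chromosome 6 cluster, at 42.9 ± 3.74 CPM in inactivated and 16.3 ± 1.93 CPM in control cells (SD, n = 3 each). H2BC12, the most abundant of them, measured 22.8, 20.5 and 22.6 CPM in inactivated cells, against 6.61, 5.73 and 6.95 CPM in control cells. The libraries of each group lay close together, and the log2 fold change was 1.77 ± 0.081 (SE; edgeR adjusted p = 7.78e-13). H2BC5 measured 10.0, 9.09 and 9.12 CPM in inactivated cells, against 4.28, 3.37 and 4.06 CPM in control cells. Its groups did not overlap, with a log2 fold change of 1.27 ± 0.104 (SE; edgeR adjusted p = 3.79e-09). H2BC4 measured 4.29, 3.10 and 3.74 CPM in inactivated cells, against 1.18, 1.04 and 1.51 CPM in control cells. All of its inactivated libraries were higher, with a log2 fold change of 1.57 ± 0.176 (SE; edgeR adjusted p = 3.06e-07). H2BC11 was the scarcest of the 4, at 1.59, 1.25 and 1.34 CPM in inactivated cells, against 0.310, 0.317 and 0.452 CPM in control cells. Its groups were far apart, with a log2 fold change of 1.94 ± 0.261 (SE; edgeR adjusted p = 3.14e-06). These 4 genes also lay above the chromosome 6 median, with edgeR adjusted p of 4.73e-11 for H2BC12, 1.63e-06 for H2BC5, 1.93e-05 for H2BC4 and 5.83e-05 for H2BC11. H2BC15 rose by a log2 fold change of 0.59 ± 0.177 (SE), and did not pass against the chromosome 6 median (adjusted p = 0.651). It also missed the threshold on lane 1 alone (adjusted p = 0.0823) and without control replicate 2 (0.0616). H2BC7, H2BC8, H2BC13 and H2BC14 did not pass, with log2 fold changes of 0.37 to 0.82, but without inactivated replicate 3 H2BC8 (edgeR adjusted p = 0.0318) and H2BC13 (0.0204) were called higher.

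The annotated structure of these H2B genes differs from the compact histone gene. H2BC12, H2BC4 and H2BC5 have 2, 2 and 3 exon blocks in the deposited annotation, with 1275, 2426 and 1072 exon bases, whereas H2BC11 has 480 bases. Summed with H3C4 and H3C6, the cluster's other genes with several exon blocks or more than 1000 exon bases, they reached 35.6 ± 2.34 CPM in inactivated cells and 11.96 ± 1.29 CPM in control cells (SD, n = 3 each), a ratio of 2.97. The 50 compact members of the cluster summed to 37.7 ± 6.56 CPM in inactivated and 23.1 ± 3.52 CPM in control cells, a ratio of 1.63. The difference between these ratios was not tested. In 19 of the 23 tested compact genes, and in all 4 tested genes with several exon blocks, inactivated replicate 1 was the highest inactivated library, and without it 10 cluster members were higher instead of 14. Reads of near-identical paralogs limit how firmly a count belongs to 1 gene. Of the 50-base coding windows of H2BC12, 25.9% occurred in no other histone gene's annotated transcript, against 85.8% for H2BC4, 86.7% for H2BC5 and 87.0% for H2BC11. Transcripts of other genes were not searched.

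Among the H2A genes of chromosome 6, 5 of 7 tested rose, a share near the 69.2% of other chromosome 6 genes called higher. H2AC6 measured 4.16, 4.19 and 4.65 CPM in inactivated cells, against 1.38, 1.07 and 1.72 CPM in control cells. Its inactivated libraries were all higher, with a log2 fold change of 1.64 ± 0.160 (SE; edgeR adjusted p = 4.41e-08). The other 4, H2AC11, H2AC12, H2AC13 and H2AC14, stayed under 1 CPM on average, at 0.414 to 0.810 CPM in inactivated and 0.0958 to 0.328 CPM in control cells, with log2 fold changes of 1.03 to 2.02. They are also among the members carried past the filter by the inactivated libraries only, and H2AC14 lost its call without inactivated replicate 1 (edgeR adjusted p = 0.0558) and without control replicate 2 (0.0793), and did not pass against the chromosome 6 median (0.163). H2AC13 and H2AC14 share most of their coding windows with other genes, as 17.7% and 16.3% were unique. H2AC8 (log2 fold change 0.51) and H2AC17 (-0.11) did not pass.

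Head-to-head H2A and H2B genes were set side by side, since 11 such pairs stood within 194 to 248 bases of each other and both genes were tested in 7. Both genes rose in 3 pairs, H2BC4 with H2AC6, H2BC11 with H2AC11 and H2BC12 with H2AC12, whose shared intervals are printed above. In the H2BC12 pair the levels were unequal, with 21.96 ± 1.25 CPM for H2BC12 and 0.414 ± 0.115 CPM for H2AC12 in inactivated cells, and 6.43 ± 0.631 and 0.0958 ± 0.0986 CPM in control cells (SD, n = 3 each). In the pairs H2BC13 with H2AC13 and H2BC14 with H2AC14, the H2A gene rose and the H2B gene did not pass. H2AC11, H2AC12, H2AC13 and H2AC14 are among the members that only the inactivated libraries carried past the filter. Of the other tested chromosome 6 genes, 69.2% were called higher. Neither gene passed in H2BC8 with H2AC8 or in the chromosome 1 pair H2BC21 with H2AC20.

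**Figure D3:**
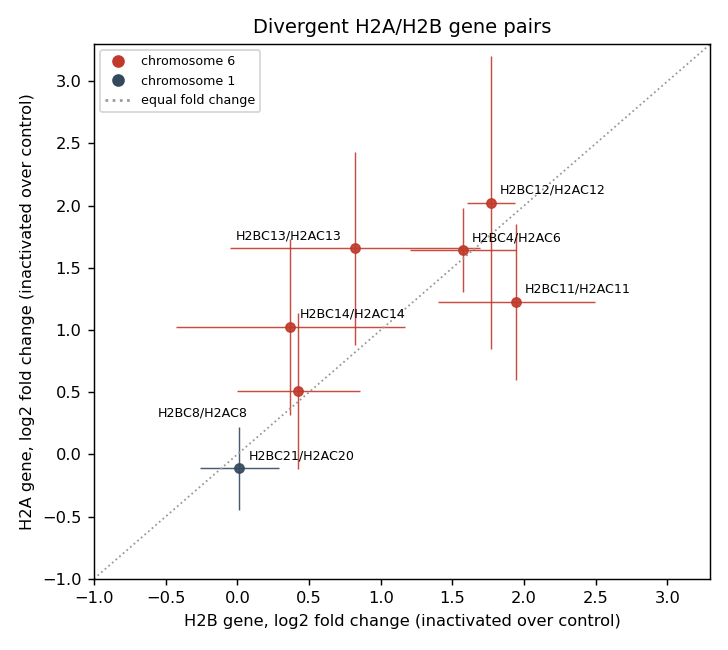
Log2 fold changes, inactivated over control, of the H2B gene (x axis) and the H2A gene (y axis) of the 7 head-to-head pairs with both genes tested, with 95% intervals. The dotted line marks equal fold changes; the H2BC21 pair of chromosome 1 sits near 0 (0.015 and -0.11), and the H2BC4 pair sits on the line (1.57 and 1.64).

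Position along chromosome 6 was described in 3 blocks of the cluster. The middle block, chr6:27132316-27147562, holds H2BC11, H2AC11, H2BC12, H4C9 and H2AC12, and its 4 tested genes were called higher, although H2AC11 and H2AC12 are among those that only the inactivated libraries carried past the filter. Its members summed to 25.0 ± 1.32 CPM in inactivated and 7.36 ± 0.804 CPM in control cells (SD, n = 3 each), a ratio of 3.39. The first block, chr6:25726063-26285534, had 5 of 13 tested members higher and a median of 0.53. The last, chr6:27807479-27893891, had 5 of 10 higher, 1 lower and a median of 0.76. In the last block H2AC13, H3C10, H2AC14 and H3C11, all called higher, are also among those that only the inactivated libraries carried past the filter. They enter that block's median with log2 fold changes of 1.03 to 1.66. H3C2 (0.65) and H3C4 (0.53), carried in the same way, enter the median of the first block. Of the other tested chromosome 6 genes 69.2% were called higher, as were 29.6% of all genes tested. The 20 tested non-histone genes between the first and last cluster member had a median log2 fold change of 0.34, with 10 higher and 2 lower.

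Of the 3 tested linker histone genes in the chromosome 6 cluster, 1 rose. Of the other tested chromosome 6 genes 69.2% were called higher, as were 29.6% of all genes tested. H1-2 measured 8.75, 7.26 and 8.62 CPM in inactivated cells, against 4.45, 3.86 and 4.36 CPM in control cells. Its groups did not overlap, with a log2 fold change of 0.95 ± 0.107 (SE; edgeR adjusted p = 3.06e-07), and it lay above the chromosome 6 median too (adjusted p = 0.00084). H1-4 measured 1.72, 0.685 and 0.672 CPM in inactivated cells, against 1.01, 0.691 and 1.23 CPM in control cells. H1-5 measured 2.13, 0.907 and 0.643 CPM in inactivated cells, against 0.563, 0.778 and 0.903 CPM in control cells. Inactivated replicate 1 stood above the other libraries for both genes, the groups overlapped, and neither passed (log2 fold changes 0.05 and 0.70, edgeR adjusted p = 0.91 and 0.0927). H1-5 was called higher with no filter on low counts (edgeR adjusted p = 0.0133), on lane 1 alone (0.0113) and without inactivated replicate 2 (0.0108) or 3 (0.0201). H1-3 did not reach the filter, with 1, 0 and 1 counts in inactivated cells, against 8, 9 and 5 counts in control cells. Every control library was above every inactivated library, and with no filter on low counts H1-3 was called lower (edgeR adjusted p = 0.000545). H1-1 had no read and H1-6, a testis form, had 0 to 2 counts per library.

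Outside the clusters, H1-10 had a far higher CPM than any clustered member. H1-10 measured 103, 85.4 and 96.6 CPM in inactivated cells, against 89.4, 86.9 and 96.9 CPM in control cells. Its groups overlapped and it did not pass, with a log2 fold change of 0.06 (95% interval -0.07 to 0.18; edgeR adjusted p = 0.422). It was called higher without inactivated replicate 2 (edgeR adjusted p = 0.0165). H1-7 and H1-8, known from germ cells, had no read.

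**Figure D4:**
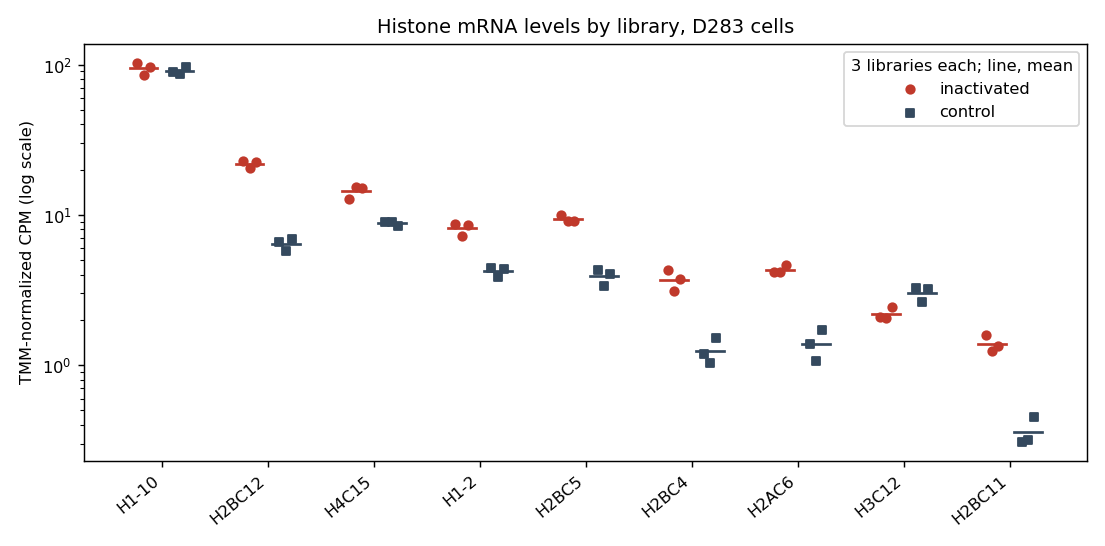
TMM-normalized CPM on a log scale (y axis) of 9 histone genes (x axis) in the 3 inactivated and 3 control libraries; points and squares are libraries and lines are means. H1-10 lies at 85.4 to 103 CPM, H2BC12 is the highest clustered gene in inactivated cells (20.5 to 22.8 CPM), and H3C12 is the one gene plotted with its inactivated points below its control points.

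Reads per kilobase of annotated exon and depth (RPKM) adjust for exon length, but not for how well tailless transcripts were kept, which was not tested. Levels of H1-10 and of the clustered members are therefore not firmly comparable. On this scale H1-10 stood at 62.6 ± 5.75 RPKM in inactivated and 60.1 ± 3.41 RPKM in control cells (SD, n = 3 each), above every clustered member in both groups. H2BC12 was the highest clustered gene in inactivated cells at 17.2 ± 0.982 RPKM, against 5.05 ± 0.495 RPKM in control cells, and H1-2 stood at 11.2 ± 1.13 RPKM, against 5.78 ± 0.435 RPKM. H3C12 stood at 4.28 ± 0.393 RPKM in inactivated and 5.93 ± 0.655 RPKM in control cells, and H2AC20 at 5.15 ± 0.406 and 5.57 ± 1.14 RPKM. In control cells H3C12, H1-2, H2AC20 and H2BC12 were the highest clustered genes, in that order, and neighbours did not differ beyond their spread.

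The H3 and H4 genes of chromosome 6 gave a mixed picture. H3C12, which encodes a replication-dependent H3, measured 2.08, 2.08 and 2.43 CPM in inactivated cells, against 3.26, 2.65 and 3.19 CPM in control cells. It was the only tested clustered member with every inactivated library below every control library, and fell by 0.47 ± 0.146 (SE) on the log2 scale (edgeR adjusted p = 0.00931). It missed the threshold on lane 2 alone (adjusted p = 0.112) and without control replicate 1 (0.0541). H3C10 and H3C11 rose, with log2 fold changes of 1.57 ± 0.319 and 1.09 ± 0.356 (SE) at mean levels of 0.820 and 0.608 CPM in inactivated and 0.269 and 0.280 CPM in control cells. H3C11 lost its call without inactivated replicate 1 (edgeR adjusted p = 0.0599) and without control replicate 2 (0.0861), and did not pass against the chromosome 6 median (0.137). H3C2 and H3C4 did not pass, but H3C2 was called higher without inactivated replicate 2 (edgeR adjusted p = 0.0436). A share of 46.4% of the exon bases of H3C4 is shared with H2AC7, so their reads cannot be told apart there. Of the H4 genes, H4C3 was called higher at the edge of the threshold (log2 fold change 0.54 ± 0.230, SE; edgeR adjusted p = 0.0495) while its groups overlapped, and it did not pass with DESeq2 (adjusted p = 0.0779) or against the chromosome 6 median (edgeR adjusted p = 0.876). H4C5 and H4C8 did not pass, but H4C8 was called higher without control replicate 3 (edgeR adjusted p = 0.0357). The 12 H4 genes of the cluster summed to 8.31, 6.43 and 3.95 CPM in inactivated cells, against 3.71, 3.43 and 4.97 CPM in control cells, so inactivated replicate 3 lay among the controls.

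On chromosome 1 the tested members did not move as a group, and their median log2 fold change was 0.015, beside 0.08 over the 28 other tested genes within 1 Mb. H4C15 measured 12.8, 15.4 and 15.1 CPM in inactivated cells, against 8.95, 8.93 and 8.49 CPM in control cells. Its groups did not overlap, and it rose with a log2 fold change of 0.72 ± 0.082 (SE; edgeR adjusted p = 4.01e-07). The deposited H4C15 entry spans 11983 exon bases in 3 blocks, overlaps H2AC19 and H3C15 on the opposite strand as well as the pseudogene H2BC20P, and has no unique 50-base coding window, so these reads cannot be ascribed to H4 coding sequence. Without H4C15 the cluster's summed level differed by -0.15 on the log2 scale, against 0.35 with it. H2BC18 measured 1.42, 1.05 and 1.05 CPM in inactivated cells, against 2.19, 1.21 and 2.35 CPM in control cells. The groups overlapped through control replicate 2, and H2BC18 fell by 0.71 ± 0.234 (SE) on the log2 scale (edgeR adjusted p = 0.0136). Its call was lost on lane 2 alone (adjusted p = 0.232) and without control replicate 1 (0.0854) or 3 (0.0862), and 42.5% of its exon bases are shared with FCGR1A, on the opposite strand, and LOC124904411. H2BC21, H2AC20 and H2AC21 did not pass, with log2 fold changes of 0.015, -0.11 and 0.07 and, for H2BC21, a 95% interval of -0.26 to 0.29.

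Of the 36 members not tested, 15 had no read in any library, namely H1-1, H1-7, H1-8, H2AC1, H2BC1, H2BC9, H2BC10, H3C1, H3C3, H3C8, H3C14, H3C15, H4C1, H4C6 and H4C7. All coding windows of 11 of these were unique among annotated histone transcripts, whereas H3C14 and H3C15 had no unique window. LSM2, ASF1B and UBR7, of the gene lists described below, had no read either, and why a gene had none was not tested. The other 21 held at most 29 counts in a library, and 15 had a higher and 6 a lower mean CPM in inactivated cells. With no filter on low counts 3 of them were called higher, H4C9, H4C12 and H4C13, and 2 lower, H1-3 and H2AC7. H4C9 had 21, 29 and 5 counts in inactivated cells, against 5, 5 and 5 counts in control cells. Inactivated replicate 3 had as many reads as each control.

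The genes that act on histone genes and their mRNA had calls in both directions, as did all genes tested (29.6% higher and 29.7% lower). SLBP, which binds the stem-loop, averaged 124 ± 5.18 CPM in inactivated and 132 ± 2.12 CPM in control cells (SD, n = 3 each) and did not pass (log2 fold change -0.08; edgeR adjusted p = 0.101). Of 22 tested genes of histone mRNA 3′ end processing, 3 were higher and 7 lower. ZNF473, a zinc finger protein of the U7 particle, fell to 51.3 ± 0.697 CPM in inactivated cells, against 62.6 ± 1.53 CPM in control cells, and CSTF2T, a cleavage stimulation factor subunit, to 52.7 ± 0.893 CPM, against 84.2 ± 1.09 CPM. SYMPK, the scaffold symplekin, measured 98.9 ± 4.05 CPM in inactivated and 85.5 ± 1.10 CPM in control cells, and SNRPE, an Sm protein, 173 ± 9.66 and 130 ± 3.32 CPM; both were called higher. Of 14 tested genes of histone mRNA decay, 4 were higher and 3 lower, among them the nuclease gene ERI1, which fell to 7.27 ± 0.682 CPM in inactivated cells, against 9.60 ± 0.529 CPM in control cells. UPF1, a helicase of RNA decay, fell by 0.26 ± 0.042 (SE) on the log2 scale, whereas the decapping enzyme gene DCP2 and the exonuclease gene XRN1 rose with log2 fold changes of 0.27 and 0.32.

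Among 13 genes of histone gene transcription, all tested, 4 were higher and 5 lower. Over all genes tested, 29.6% were higher and 29.7% lower. NPAT fell to 49.7 ± 3.10 CPM in inactivated cells, against 58.2 ± 2.78 CPM in control cells (log2 fold change -0.23; edgeR adjusted p = 0.00122). CCNE1, which encodes cyclin E1, was higher at 47.0 ± 1.24 CPM in inactivated and 38.1 ± 0.510 CPM in control cells, as was ATM, a DNA damage kinase, at 83.7 ± 9.92 and 61.9 ± 3.66 CPM. E2F1, a regulator of S phase entry, fell to 46.9 ± 1.13 CPM in inactivated cells, against 58.1 ± 0.382 CPM in control cells, and CDKN1A, the cell cycle inhibitor p21, to 10.0 ± 1.07 CPM, against 17.2 ± 0.479 CPM. Of 41 tested genes of S phase, 12 were higher and 15 lower. E2F8, a repressor of the E2F family, measured 22.5 ± 0.283 CPM in inactivated and 6.78 ± 0.581 CPM in control cells, and BRIP1, a helicase gene, 72.9 ± 4.34 and 39.7 ± 3.21 CPM. RFC2, a clamp loader subunit, fell to 45.6 ± 2.33 CPM in inactivated cells, against 97.6 ± 3.09 CPM in control cells, and UNG, a DNA glycosylase, to 102 ± 4.96 CPM, against 151 ± 3.07 CPM.

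Histone chaperones and replication-independent variants were described for comparison. The counts below stand beside 29.6% higher and 29.7% lower over all genes tested. Of 21 tested chaperone genes 5 were higher and 4 lower. MMS22L (log2 fold change 0.76) and ASF1A (0.48) rose, and both lie on chromosome 6. ANP32E, a chaperone that removes H2A.Z, rose with a log2 fold change of 0.30 on chromosome 1, and SUPT16H, a subunit of FACT, fell by 0.28 on the log2 scale. Of 8 tested variant genes 2 rose and 6 did not pass. The 2 were H3-3A, at 37.7 ± 1.31 CPM in inactivated and 20.3 ± 0.175 CPM in control cells, and H3-3B, at 589 ± 7.68 and 448 ± 8.18 CPM, both encoding histone H3.3. Of 16 genes of the poly(A) machinery, 4 were higher and 4 lower, among them CSTF3 (log2 fold change 0.29), CDK12 (0.40) and CDC73 (0.34), which rose, and PCF11, which fell by 0.49 on the log2 scale.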

How the data were processed

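Messenger RNA was measured by RNA-seq in 3 inactivated and 3 control libraries of 50 bp paired-end reads. The authors deposited unnormalized read counts for every gene on each lane, and the submitters' processing notes name STAR 2.7.2b, featureCounts 1.6.3 and GRCh38.p14. The exon length in bases, another deposited value, was used for reads per kilobase. Strand settings and the treatment of reads with several alignments are not given in the sources used here. Lanes were summed per library, and 26 genes without counts were left out. edgeR 4.0.16 in R 4.3.3 was fitted to all genes (filterByExpr by group, TMM scaling, quasi-likelihood F test, two-sided, Benjamini-Hochberg). The fit was checked on simulated counts. DESeq2 1.42.0, limma 3.58.1, other scalings, lanes, filters and left-out libraries were alternatives. CPM are TMM-normalized, whereas floors use library totals alone and cover counting error only. Nothing in the labels says the libraries are separate cultures, so p-values measure a spread that may be technical. Members and lists were chosen with earlier results of these data known. Tested members are named, except 1 result not reported here, with values per library for those of at least 5 CPM and for linker histone genes, as are up to 4 genes per list by lowest p. Values per library of H2BC4, H2BC11, H2AC6, H2BC18 and H3C12 were added after seeing them. Sequences come from GENCODE (GRCh38) and RefSeq (GRCh38.p14).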

Additional observations from a re-analysis of the deposited data

How the results depend on the processing

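Every alternative kept the sign of each called member, and 22 of the 34 tested members kept their side of the threshold in each alternative fit against 0 that gave them a value. Of these, H2AC17 was called lower against the chromosome 6 median (edgeR adjusted p = 0.0294). Some called members among them lacked a value in some fits: H2AC12, H2AC13 and H3C10 on lane 2 alone, and H2AC11 on lane 1 alone. H2AC12 also gave no value on lane 1 alone, without inactivated replicate 1, or with a filter on the mean of all 6 libraries. The count of histone genes lower was 2, against 4 with no filter, 0 on lane 2 alone and 0 to 2 with 1 library left out. The 14 chromosome 6 genes higher became 9 on lane 1 alone and 9 on lane 2 alone, where each library has fewer reads. The 1 chromosome 6 gene lower became 3 with no filter, 0 on lane 2, 0 to 1 with 1 library left out and 2 against the chromosome 6 median. The 1 chromosome 1 gene lower became 0 on lane 2 and 0 to 1 with 1 library left out. The median log2 fold change of the chromosome 6 cluster, 0.70, ran from 0.42 to 1.08 with 1 library left out and was 0.20 after subtracting the median of other chromosome 6 genes. The 0.70 includes the 8 members that only the inactivated libraries carried past the filter. The chromosome 1 median was 0.37 with no filter, where more genes enter it. The summed chromosome 6 level, a log2 difference of 1.06, was 0.84 without H2BC12, and the summed chromosome 1 level, 0.35, was -0.15 without H4C15; these were chosen after seeing the data. The cause of the other shifts was not tested. No paired analysis was possible because the labels give no number shared between the groups. Depth limits 16 tested members that average under 1 CPM.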
